A study of Mus musculus with 23 samples.

Results

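Binding of the oxysterol receptor LXRβ and of p65 was described around 5 lipogenic genes, Srebf1, Fasn, Scd1, Scd2 and Lpcat3. The members were all ChIP-seq peaks of 5 deposited lists whose centre lay in 4 windows of mouse build mm9: 100 kb around Srebf1 and around Fasn on chromosome 11, 210 kb holding Scd1 and Scd2 on chromosome 19, and 100 kb around Lpcat3 on chromosome 6. Of 58278 peaks in all, 56 were members. They comprised 17 of 2743 LXRβ peaks, 16 of 22585 p65 peaks of KLA-treated knockout macrophages and 22 of 30021 of KLA-treated wild type macrophages. The untreated p65 lists contributed 0 of 2227 peaks in knockout cells and 1 of 702 in wild type cells. By window, 8 members lay around Srebf1, 5 around Fasn, 24 around Scd1 and Scd2 and 19 around Lpcat3.

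LXRβ was mapped in RAW264.7, a mouse macrophage line, as a stable line with the biotin ligase BirA and a biotin-tagged LXRβ (BirA/BLRP-LXRb), treated for 2 h with 1 µM of the synthetic LXR agonist GW3965 and captured on streptavidin. The heights therefore concern an introduced, tagged receptor under agonist. p65, the NF-κB subunit RelA that moves into the nucleus upon TLR4 signalling, was mapped with an antibody in thioglycollate-elicited peritoneal macrophages of male C57BL/6 mice aged 6 to 8 weeks. Knockout cells came from NCoR fl/fl mice carrying Lys M-Cre (+/-), which recombines in myeloid cells, and wild type cells from NCoR fl/fl mice without it (-/-), so both genotypes carried the floxed alleles of the nuclear receptor corepressor. Cells of each genotype were either given Kdo2-Lipid A (KLA), a TLR4 agonist, at 100 ng/ml for 1 h or left untreated, and all cells, the RAW264.7 line included, were kept overnight in low serum. The other samples of the 23 in the series were not analysed here. Each group was 1 library, so no difference has a replicate check and no test between groups was run. Intervals are at 95%. Those of single heights and of ratios of 2 heights cover counting error only. Those of overlap shares and of the median ratio treat the members as independent draws, which neighbouring peaks need not be. None covers variation between libraries. NCoR itself, and the identity of the cells by marker genes, cannot be read from peak lists.

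LXRs bind DNA with the retinoid X receptor at direct repeats of a nuclear receptor core motif 4 bases apart, and with agonist they recruit coactivators in place of corepressors such as NCoR. In mouse liver they raise fatty acid synthesis, in large part through Srebf1, whose product SREBP-1c switches on the genes of the pathway. In macrophages they are known both for cholesterol efflux and for damping inflammatory genes. Srebf1 encodes the transcription factor, Fasn the synthase that builds palmitate, Scd1 and Scd2 desaturases that turn saturated into monounsaturated fatty acids, and Lpcat3 an acyltransferase that loads polyunsaturated fatty acids into phospholipids.

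Promoter sequences are shown because those of Fasn and Srebf1, the target enzyme and the transcription factor, hold receptor-type matches with nearly the same letters, and that of Lpcat3 for contrast. RefSeq (GRCm38.p6) gave 5 promoters of 300 bases for 3 of the 5 genes, namely 3 for Srebf1, 1 for Fasn and 1 for Lpcat3; Scd1 and Scd2 had no entry. The Fasn promoter is chr11:120824498-120824797 on the minus strand, the Srebf1 promoter chr11:60210422-60210721 on the minus strand, and the Lpcat3 promoter chr6:124662854-124663153 on the plus strand. Capitals mark the matches to the receptor repeat and to the CCAAT box, the site of the factor NF-Y, which acts together with SREBP at many lipogenic promoters.

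Fasn promoter: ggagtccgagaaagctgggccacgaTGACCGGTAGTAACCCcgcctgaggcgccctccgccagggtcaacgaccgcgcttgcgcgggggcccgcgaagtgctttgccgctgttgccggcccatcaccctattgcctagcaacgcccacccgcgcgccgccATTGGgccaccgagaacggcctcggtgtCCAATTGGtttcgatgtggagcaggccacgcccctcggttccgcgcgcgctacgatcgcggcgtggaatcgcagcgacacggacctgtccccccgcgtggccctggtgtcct

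Srebf1 promoter: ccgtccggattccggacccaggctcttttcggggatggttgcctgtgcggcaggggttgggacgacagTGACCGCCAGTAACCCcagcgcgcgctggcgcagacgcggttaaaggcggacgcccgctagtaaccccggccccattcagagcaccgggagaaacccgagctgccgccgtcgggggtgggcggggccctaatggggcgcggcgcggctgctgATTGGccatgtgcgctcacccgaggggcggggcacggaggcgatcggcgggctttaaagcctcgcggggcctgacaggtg

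Lpcat3 promoter: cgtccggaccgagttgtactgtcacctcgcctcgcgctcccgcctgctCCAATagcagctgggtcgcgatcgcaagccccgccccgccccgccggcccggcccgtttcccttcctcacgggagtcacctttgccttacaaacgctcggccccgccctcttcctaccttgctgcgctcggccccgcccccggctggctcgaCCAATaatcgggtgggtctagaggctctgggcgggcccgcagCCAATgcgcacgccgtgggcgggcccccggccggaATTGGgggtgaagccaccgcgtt

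The repeat was searched as 2 copies of AGGTCA in the same direction, 4 bases apart, on both strands. At up to 2 mismatches in the 12 fixed bases, none of the 5 promoters matched, while 3.02% of all 32851 promoters did. At up to 3 mismatches, a limit chosen after seeing the data, 21.9% of all promoters matched, and so did those of Fasn and Srebf1 shown above. The Fasn match lay at positions -225 to -210 from the gene start and the Srebf1 match at -182 to -167, both on the strand opposite to the gene. Read on that strand, the 16 bases were the same at 14 positions.

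Fasn site: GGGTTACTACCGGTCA

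Srebf1 site: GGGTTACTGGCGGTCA

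A match at this limit was common among promoters and is a description of letters, not of binding. CCAAT stood 4 times in the Lpcat3 promoter, 3 times in that of Fasn, with 2 of these overlapping on opposite strands, and once in each of 2 Srebf1 promoters, against 37.4% of all promoters with at least 1. The NF-κB consensus, held by 4.51% of all promoters, matched 1 member, the Srebf1 promoter at chr11:60220578-60220877 on the minus strand. The 10 bases GGGAAACCCC, at -22 to -13, matched there on both strands. The single core motif AGGTCA (16.3% of all promoters), the E-box CACGTG (7.15%) and the sterol element TCACNCCAC (1.24%), to which SREBPs bind, were not found as letters in the 5 promoters, which says nothing about binding elsewhere. Of 18 other genes of fatty acid synthesis and its control that were listed for comparison, 16 had a promoter. Among these 16, the repeat matched in Acsl3 and Gpam at up to 2 mismatches and in 7 genes at up to 3. CCAAT stood in 9 of them, the single core motif and the E-box in 4 each, the NF-κB consensus in Fads2 and Insig2, and the sterol element in Mlxipl alone, the gene of the glucose-responsive factor ChREBP. The peaks are on mm9 and the promoters on GRCm38.p6, and no mm9 annotation was at hand, so whether a peak lies at one of these promoters was not determined. For the same reason no other genes were matched to these by their peaks.

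Heights are the authors' normalized tag counts, in tags per 10000000 tags of the library. The LXRβ library held 11758634 tags, the KLA p65 libraries 1673506 (knockout) and 2120392 (wild type), and the untreated p65 libraries 786121 (knockout) and 777228 (wild type). One tag was worth 0.910 for LXRβ, as its deposited heights and scores give it (they imply another total than the file header does), 5.98 and 4.72 in the knockout and wild type KLA libraries, and 12.7 and 12.9 in the knockout and wild type untreated libraries. The lowest listed heights were 8.2 for LXRβ, 29.9 (knockout) and 18.9 (wild type) after KLA, and 63.6 (knockout) and 64.3 (wild type) untreated, so a site missing from a list may hold tags below these. No input was used in calling the wild type KLA list, unlike the others, and heights are not compared between LXRβ and p65.

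**Figure D1:**
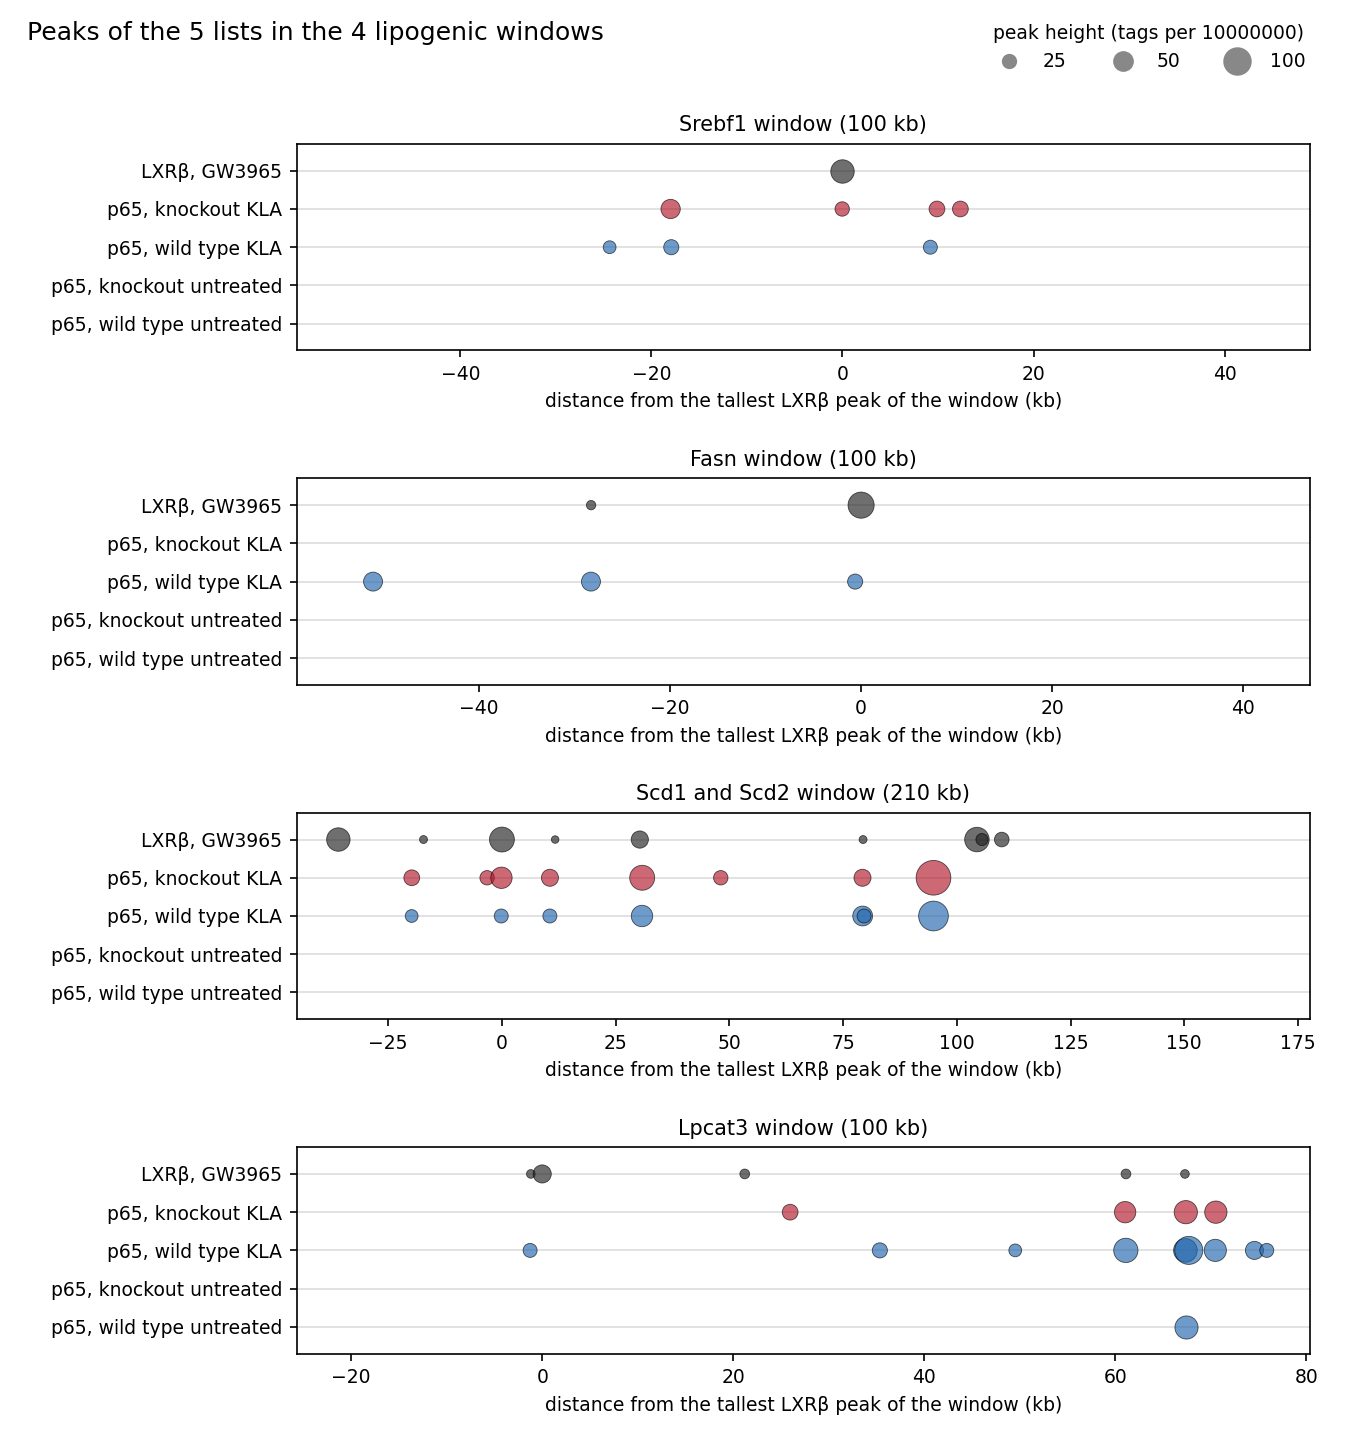
Peaks in the 4 windows, by distance in kb from the tallest LXRβ peak of each window, with 1 row per list (LXRβ, then KLA p65 in knockout and wild type cells, then untreated p65 in knockout and wild type cells) and a point area proportional to peak height. LXRβ peaks stand in all 4 windows, knockout KLA p65 peaks in all but that of Fasn, and the single untreated peak stands in the Lpcat3 window of wild type cells.

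LXRβ was most strongly bound near Fasn, in the Scd1 and Scd2 window and near Srebf1, and per 100 kb it had most peaks in the Lpcat3 window (5), then in the wider Scd1 and Scd2 window (4.29), the Fasn window (2) and the Srebf1 window (1). The tallest peak of each window reached 98.3 at Fasn, 89.2 at Scd1 and Scd2, 79.2 at Srebf1 and 47.3 at Lpcat3. Of the 17 LXRβ members, 7 were among the 100 tallest ranks of the list of 2743 peaks, and 12 stood above the list's median of 10.9, with a median of 20.9 among members. The genes were listed as known LXR targets, so these ranks describe the windows and do not test them.

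At Srebf1, whose own transcription LXR raises in mouse tissues, LXRβ had a single peak, at chr11:60024047-60024167. It held 87 tags, a height of 79.2 (Poisson interval 63.4 to 97.6) and rank 18 of 2743. At least 1 LXRβ peak stood in 7.59% of all 26382 tiled windows of 100 kb. KLA p65 stood at this place in knockout cells, where a peak of 29.9 (5 tags, interval 9.70 to 69.7) at chr11:60024006-60024150 was centred 29 bp away. The wild type KLA list had no peak nearer than 9200 bp. The knockout peak rested on the lowest number of tags that the list allows, so the difference between genotypes at Srebf1 could not be told from counting error. The other knockout KLA peaks of the window were 53.8, 35.9 and 35.9 high, and the wild type KLA peaks 33.0, 28.3 and 23.6. The tallest p65 site of the window, chr11:60006042-60006186 in knockout cells, was shared by the genotypes and lay 17993 bp from the LXRβ peak. The nearest of the other peaks, 35.9 at chr11:60033927-60034071 in knockout cells and 28.3 at chr11:60033241-60033373 in wild type cells, did not overlap and were centred 692 bp apart. In RefSeq order Srebf1 lies between Rai1 and Tom1l2.

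At Fasn, the synthase gene, LXRβ had its tallest peak of all 4 windows, at chr11:120685997-120686117, with 108 tags, a height of 98.3 (80.6 to 119) and rank 5. A peak of 12.7 (6.96 to 21.4), low among the members but at rank 715 of 2743, stood at chr11:120657730-120657850. At least 2 LXRβ peaks in 100 kb were found in 1.80% of tiled windows. p65 was listed here in wild type cells alone. The knockout KLA list had no peak in the window, and 30.6% of tiled windows held at least 1 of its peaks. The wild type KLA list had 3, of 51.9 at chr11:120634898-120635030, 51.9 at chr11:120657709-120657841 and 33.0 at chr11:120685369-120685501, and 16.7% of tiled windows held as many or more. The peak of 51.9 at 120657709 overlapped the low LXRβ peak, with centres 15 bp apart. The peak of 33.0 (7 tags, 13.3 to 68.0) was centred 622 bp from the tall LXRβ peak and did not overlap it. The wild type peaks of 51.9 held 11 tags each (25.9 to 92.8), an interval that includes the lowest height the knockout list could show, 29.9. The nearest knockout KLA peak, itself 29.9, stood 5230 bp from the outermost wild type peak and outside the window. In RefSeq order Fasn lies between Dus1l and Ccdc57.

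In the Scd1 and Scd2 window LXRβ had 9 peaks spread over 145970 bp, or 4.29 per 100 kb, and 0.227% of tiled windows held 4 or more. In RefSeq order the desaturase genes run Scd3, Scd2, Scd4, Scd1, so the windowed peaks cannot be divided between Scd1 and Scd2. Of the LXRβ peaks, 3 were tall, with 89.2 at chr19:44358696-44358816 (98 tags, 72.4 to 109), 86.5 at chr19:44463124-44463244 (95 tags, 69.9 to 106) and 79.2 at chr19:44322731-44322851 (87 tags, 63.4 to 97.6). Intermediate peaks reached 42.8 at chr19:44389002-44389122, 30.9 at chr19:44468581-44468701 and 20.9 at chr19:44464229-44464349. The remaining 3 were near the list's lower limit, with 9.1 at chr19:44341453-44341573 and at chr19:44438091-44438211 and 8.2 at chr19:44370397-44370517. The 3 tall peaks thus stood far apart, and their counting intervals overlapped.

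The Scd1 and Scd2 window also held the tallest p65 site among all members. It measured 173.3 (29 tags, 116 to 249) at chr19:44453561-44453705 in knockout KLA cells and 127.3 (27 tags, 83.9 to 185) at chr19:44453566-44453698 in wild type KLA cells, with centres 1 bp apart. This site was not at an LXRβ peak; the nearest, the tall one of 86.5, lay 9551 bp away. The next site was 89.6 in knockout cells at chr19:44389518-44389662 and 66.0 in wild type cells at chr19:44389482-44389614, centred 528 and 486 bp from the LXRβ peak of 42.8. At the tall LXRβ peak of 89.2, the knockout KLA peak of 65.7 at chr19:44358577-44358721 overlapped it and the wild type KLA peak of 28.3 at chr19:44358538-44358670, centred 152 bp away, did not. These p65 peaks overlapped each other, with centres 45 bp apart. At the low LXRβ peak of 9.1 at 44438091, both genotypes had overlapping p65, with 41.8 in knockout cells at chr19:44437953-44438097 and 56.6 in wild type cells at chr19:44437994-44438126. A further wild type peak of 28.3 at chr19:44438310-44438442 lay 225 bp from it. In all, the window held 8 knockout KLA peaks, 3.81 per 100 kb, and 7 wild type KLA peaks, 3.33 per 100 kb. Of tiled windows, 12.6% held 3 or more knockout KLA peaks and 16.7% held 3 or more wild type KLA peaks. The 4 knockout peaks not described above were between 29.9 and 41.8 high, and the 2 such wild type peaks 28.3 and 23.6.

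At Lpcat3, the phospholipid acyltransferase gene, LXRβ had 5 peaks, and 0.0910% of tiled windows held as many or more. Of the 5, 4 were low among the members, under their median of 20.9, though none stood under the list's median of 10.9. The tallest was 47.3 (52 tags, 35.3 to 62.0, rank 54) at chr6:124612611-124612731. The others were 13.7 at chr6:124633814-124633934 and at chr6:124673725-124673845, and 10.9 at chr6:124611421-124611541 and at chr6:124679899-124680019. The tallest peak had no p65 overlap, its nearest knockout KLA centre being 25368 bp away and its nearest wild type KLA centre 1267 bp away. Of the 4 low peaks, 3 overlapped KLA p65 of at least 1 genotype, as did 1339 of all 2743 LXRβ peaks. At 124673725 the p65 height was 65.7 in knockout KLA cells (chr6:124673627-124673771) and 84.9 in wild type KLA cells (chr6:124673707-124673839). At 124679899 it was 77.7 in knockout cells (chr6:124679979-124680123) and 80.2 in wild type cells (chr6:124679942-124680074). At 124611421 the wild type KLA list alone had an overlapping peak, of 28.3 (6 tags) at chr6:124611338-124611470. The low peak at 124633814 had no p65 overlap, with its nearest knockout KLA centre 4755 bp and its nearest wild type KLA centre 14144 bp away.

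After KLA, the knockout list held 4 peaks in the Lpcat3 window and the wild type list 9. As many or more stood in 8.37% of tiled windows for the knockout list and in 1.79% for the wild type list. Of the wild type peaks, those of 28.3, 28.3 and 23.6 stood under 29.9, the lowest height in the knockout list. The lists were also not called with the same settings, so the counts of the 2 genotypes cannot be compared directly. The Srebf1 window also held 4 knockout and 3 wild type KLA peaks. The tallest wild type peak, 113.2 (24 tags, 72.5 to 168) at chr6:124680293-124680425, overlapped no knockout peak. The knockout peak of 77.7 was centred 308 bp from it. A further shared site measured 71.7 in knockout cells at chr6:124683123-124683267 and 70.7 in wild type cells. The remaining knockout peak was 35.9 high, and the 4 remaining wild type peaks were 47.2, 33.0, 28.3 and 23.6. In RefSeq order Lpcat3 is followed by Emg1, Phb2 and Ptpn6, the gene of the phosphatase SHP-1, and which of these genes the peaks lie nearest to was not determined.

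**Figure D2:**
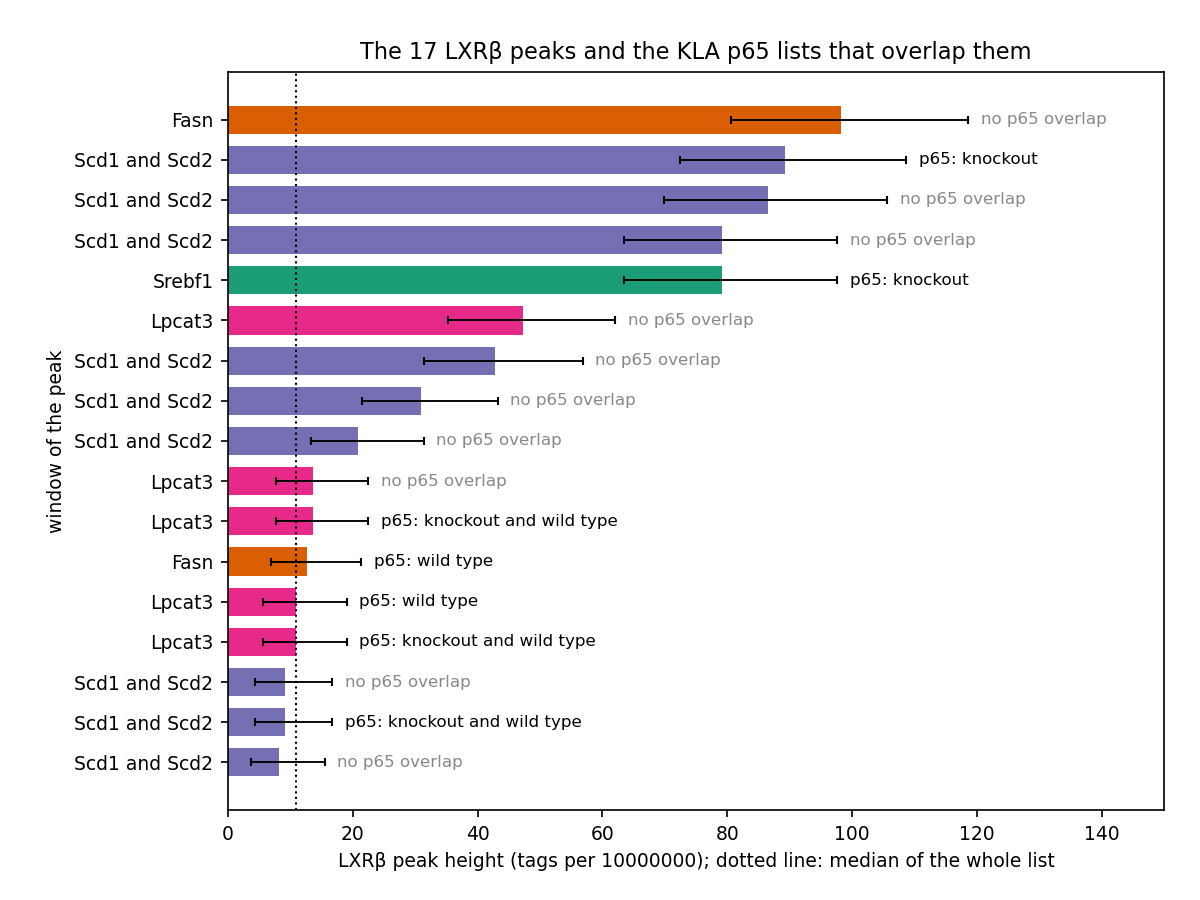
Height of each of the 17 LXRβ peaks in tags per 10000000, with exact 95% Poisson intervals as bars, coloured by window and marked with the KLA p65 lists, knockout or wild type, that overlap it. Heights run from 98.3 at Fasn down to 8.2 in the Scd1 and Scd2 window. The tall peaks with a p65 overlap are 1 at Scd1 and Scd2 and 1 at Srebf1, both in knockout cells. At that of Scd1 and Scd2, a wild type p65 peak is centred 152 bp away without overlap.

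In the order of heights, the first 5 LXRβ peaks (98.3, 89.2, 86.5, 79.2 and 79.2) did not differ from each other, neighbour by neighbour, beyond counting error. Of the 16 pairs of neighbours in the whole order, 1 differed, namely the Srebf1 peak of 79.2 and the Lpcat3 peak of 47.3, with a ratio of 1.67 (conditional binomial interval 1.17 to 2.41). All other neighbours had ratios whose intervals included 1, and the intervals were not adjusted for the number of pairs. Neighbours in a sorted order have the smallest gaps, so these ratios do not show that peaks further apart were alike. The Poisson intervals of the peaks of 42.8 (31.4 to 56.9) and 13.7 (7.64 to 22.5), for example, did not overlap. Scaled input tags were between 1.4 and 3.0 at the LXRβ members, 1.4 being the lowest value in that list, and the authors' fold over input ran from 4.86 to 107. The authors' focus ratio, which is 1 where all tags lie on the expected side of the peak centre for their strand, ran from 0.682 to 0.95 with a median of 0.8, against 0.769 over the whole list.

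Overlap between LXRβ and KLA p65 addressed whether the receptor and the inflammatory factor used the same places. It compares positions in a cell line under LXR agonist with positions in primary cells under KLA, not binding in the same cell. Of the 17 LXRβ members, 5 overlapped a knockout KLA p65 peak by 1 bp or more (29.4%, Clopper-Pearson interval 10.3 to 56.0), and over all LXRβ peaks the share was 34.8%. Likewise 5 overlapped a wild type KLA peak (29.4%, same interval), against 42.4% over the list. Both intervals include the share of the whole list. The overlapping peaks were in part different ones, since 3 overlapped p65 of both genotypes, 2 of knockout cells alone, 2 of wild type cells alone, and 10 neither. Over all 2743 LXRβ peaks the same classes held 778 (both), 177 (knockout alone), 384 (wild type alone) and 1404 (neither). The 3 with both were low among the members, namely 1 in the Scd1 and Scd2 window and 2 at Lpcat3. The 2 with knockout p65 alone were the tall peaks of Srebf1 and of Scd1 and Scd2. The 2 with wild type p65 alone were the peaks of 12.7 at Fasn and 10.9 at Lpcat3. These classes rest on the 1 bp rule and on few tags. At the tall Scd1 and Scd2 peak, a wild type p65 peak was centred 152 bp away and overlapped the knockout p65 peak. The knockout p65 peak at Srebf1 held 5 tags, and the wild type one at Lpcat3 held 6.

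Split by height, of the 8 LXRβ members above their median of 20.9, 2 overlapped knockout KLA p65 and 0 wild type KLA p65 (interval 0 to 36.9). Over all LXRβ peaks of such height these shares were 25.8% and 33.8%. Of the 9 members at or below it, 3 overlapped knockout p65 and 5 wild type p65, against 35.7% and 43.2% of all LXRβ peaks of such height. The interval for the tall members and wild type p65 includes the share of the list. Within 1000 bp of the LXRβ centre, 6 of 17 members had a knockout KLA p65 centre (48.0% of the whole list) and 8 of 17 a wild type one (58.0%). Seen from p65, 5 of 16 knockout KLA members and 5 of 22 wild type KLA members overlapped an LXRβ peak, against 4.23% and 3.87% of those lists; the windows were laid around LXR target genes, so these shares are set by that choice.

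**Figure D3:**
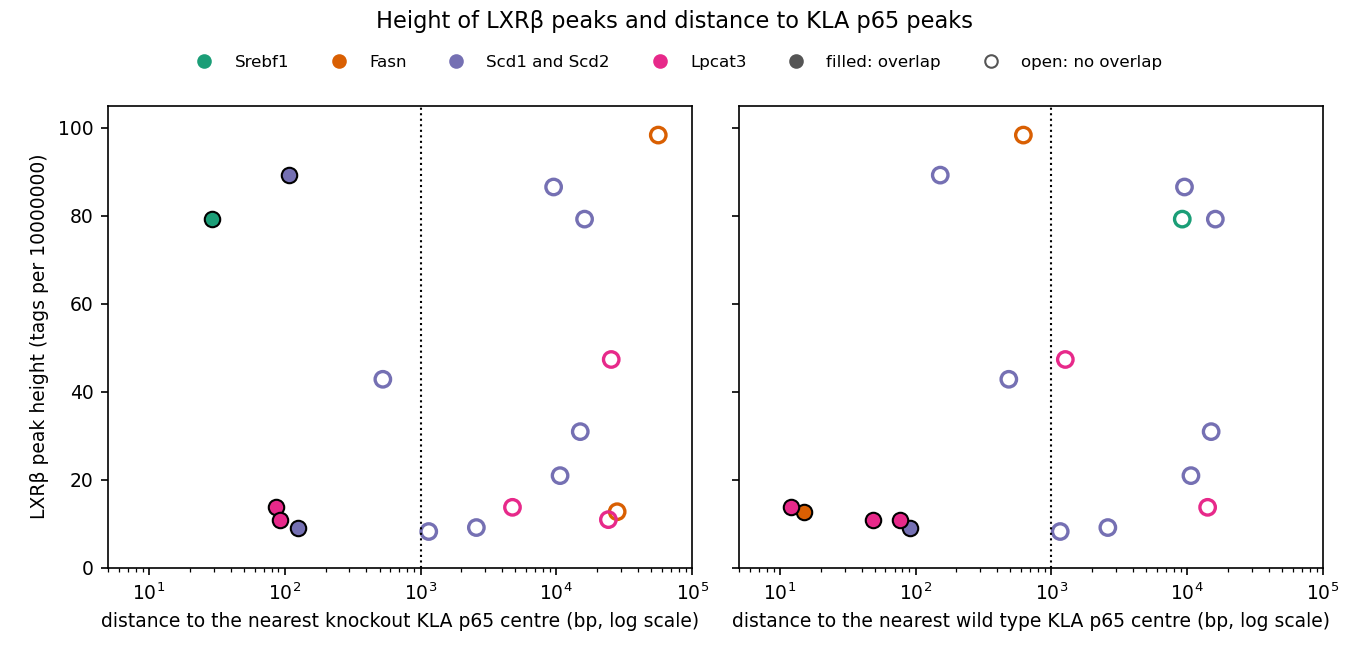
LXRβ peak height (tags per 10000000) against the distance in bp (log scale) from its centre to the nearest KLA p65 centre, in knockout cells (left) and wild type cells (right), filled where the peaks overlap and with a dotted line at 1000 bp. The tall Fasn peak of 98.3 has its nearest knockout p65 centre at 56323 bp and a wild type centre at 622 bp, and the Srebf1 peak of 79.2 has a knockout centre at 29 bp and its nearest wild type centre at 9200 bp.

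The comparison of genotypes after KLA asked whether p65 stood at other places near these genes when NCoR was deleted. Peaks of 10 tags or more were found in the other genotype more often than lower ones, among members and over the whole lists alike. Of the 16 knockout KLA members, 10 overlapped a wild type KLA peak (62.5%, 35.4 to 84.8), against 71.7% of the whole knockout list. Of the 22 wild type KLA members, 10 overlapped a knockout KLA peak (45.5%, 24.4 to 67.8), against 54.0% of the whole wild type list. Among knockout members with 10 tags or more, 6 of 6 were found in the wild type list, where 91.7% of such peaks were found over the list, and among those under 10 tags 4 of 10, where it was 56.2%. Among wild type members with 10 tags or more, 6 of 10 were found in the knockout list (81.3% over the list), and under 10 tags 4 of 12 (32.8%). The 4 wild type members of 10 tags or more without a knockout overlap were both peaks of 51.9 at Fasn and those of 113.2 and 47.2 at Lpcat3.

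At the 10 sites in both lists the knockout height was the higher at 7 and the lower at 3. The median ratio of knockout to wild type was 1.36 (order-statistic interval 0.774 to 1.63), and over all 16203 shared sites it was 1.09. To be shared, a site had to be listed in both, and the lowest heights were 29.9 (knockout) and 18.9 (wild type). The shared sites with wild type heights of 28.3, 28.3 and 23.6 could therefore only come out higher in knockout cells. Both the count of directions and the median are thus in part set by these limits. With 10 tags or more in both lists, at 5 sites, the median was 1.01. The ratio was 2 or more at 1 member site, as at 6.28% of all shared sites, and 0.5 or less at 0, as at 2.43%. That site was the one at the tall LXRβ peak of the Scd1 and Scd2 window, with 65.7 in knockout and 28.3 in wild type cells, a ratio of 2.32 with an interval of 0.787 to 7.65. At the tallest site the ratio was 1.36 (0.778 to 2.39). At the shared Srebf1 site, with 53.8 in knockout and 33.0 in wild type cells, it was 1.63 (0.540 to 5.15). All 3 shared Lpcat3 sites had ratios near or below 1, of 0.774, 0.969 and 1.01. The intervals of all 10 sites included 1, so no shared site differed between the genotypes beyond counting error. Peak width was 144 bp in the knockout list and 132 bp in the wild type list, and with heights divided by width the median ratio came to 1.25. In the wild type KLA list the authors' score differed from the tags that the height implies at 6 of 22 members, which bears on the wild type tags, intervals and ratios given here, and with scores in place of heights the median ratio was 1.19.

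**Figure D4:**
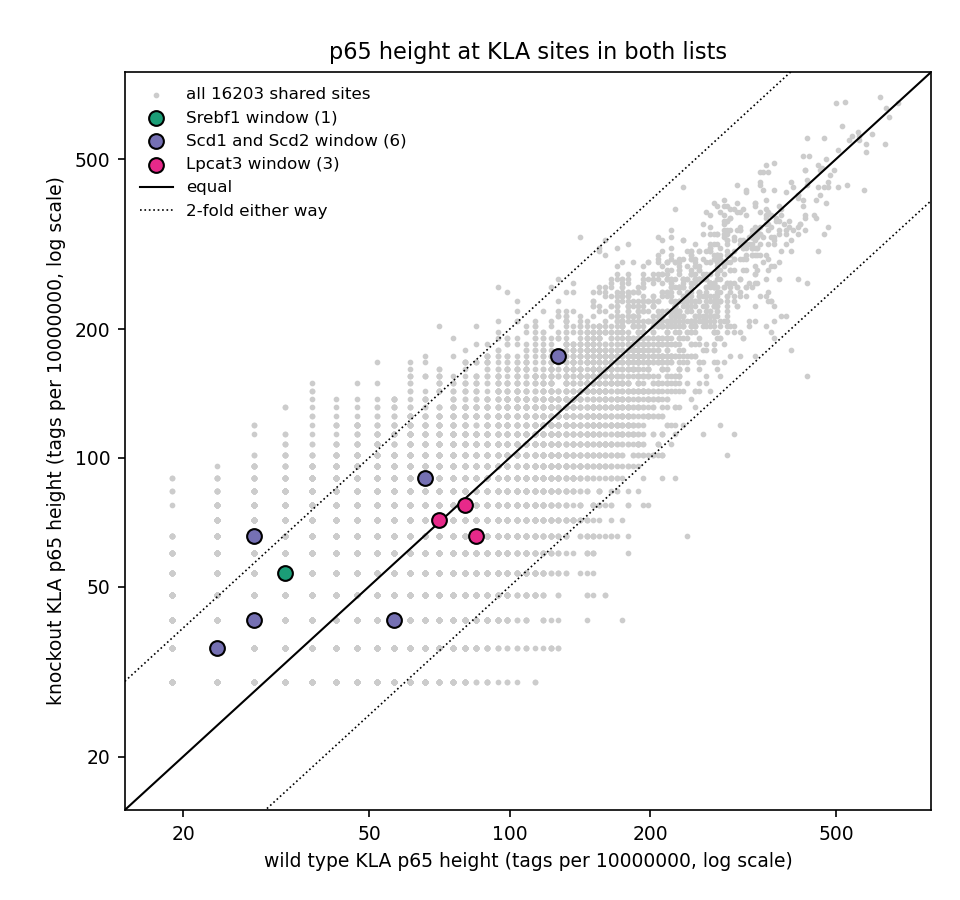
p65 height after KLA in knockout cells (vertical axis) against wild type cells (horizontal axis), in tags per 10000000 on log scales, at the 16203 sites in both lists (grey) and the 10 in the lipogenic windows (coloured by window). The 10 sites lie between ratios of 0.739 and 2.32, 1 of them above the 2-fold line, and the Scd1 and Scd2 site of 173.3 in knockout and 127.3 in wild type cells is the tallest.

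KLA was compared with untreated cells to ask which of these p65 sites were listed without a stimulus. Nearly all were listed after KLA alone, as were 21663 of all 22585 knockout and 29489 of all 30021 wild type KLA peaks. In knockout cells 0 of 16 KLA members overlapped an untreated peak (upper limit 20.6%), against 4.08% of the whole KLA list, and in wild type cells 1 of 22 (4.55%, 0.115 to 22.8), against 1.77%. The untreated libraries could show few of these sites. In each genotype, 6 KLA members reached the lowest height listed in untreated cells. Of these, 0 of 6 overlapped an untreated peak in knockout cells, where the share over the list was 6.48%, and 1 of 6 in wild type cells, where it was 4.59%. For the other members, no untreated peak was detectable at a height equal to that after KLA.

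The site listed without a stimulus was in the Lpcat3 window, with a wild type KLA height of 80.2 (17 tags, 46.7 to 128) and a wild type untreated height of 77.2 (6 tags, 28.3 to 168) at chr6:124680014-124680116. In knockout cells the KLA height was 77.7 (13 tags, 41.4 to 133), and the nearest knockout untreated peak lay 26723 bp from that KLA peak. The same site overlapped the low LXRβ peak of 10.9 at 124679899. It was the single place in the windows at which 4 of the 5 lists overlapped. In wild type cells the counting intervals with and without KLA overlapped. An untreated wild type peak was listed only at 64.3 or more, so an untreated height far under 80.2 could not appear. The site was described because it was listed untreated, so these heights cannot tell whether KLA changed p65 binding there. Likewise, fewer than 5 tags would not have been listed in the knockout untreated library.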

How the data were processed

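ChIP-seq peak lists of 5 libraries were used, 1 per group, with groups taken from the sample titles. The submitters' processing notes name Bowtie 0.12.7, HOMER (its version is not given in the sources used here) and build mm9. Each library's peaks were called on their own by findPeaks, in its factor mode, at a false discovery rate of 0.001 with at most 1 tag per bp, at least 4-fold over the surrounding 10000 bp and, where an input was given, over input, per the file headers. Tag thresholds were 9 for LXRβ and 5 for p65, per the file headers. The genome size set there was 2000000000 for the LXRβ and wild type KLA lists and 4000000000 for the other lists. The knockout and wild type KLA lists were therefore not called with the same settings. Peak widths were 121 bp (LXRβ), 144 and 132 bp (knockout and wild type KLA) and 126 and 103 bp (knockout and wild type untreated), which bears on overlap.

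The deposited height is a signal, a peak's tags scaled to 10000000 tags per library. The deposited findPeaks score, a whole number, was used for tags in 1 alternative and, for LXRβ, to find the height of 1 tag, because the deposited heights there imply another total than the header does. In the wild type KLA list the score differs from the tags implied by the height at 13561 of 30021 peaks and is the higher at all of these, while the other lists have no such difference. Scaled input tags are the deposited counts, the fold over input and over local signal is the authors' ratio, and the focus ratio the authors' fraction. These values are the authors' and describe peaks within a list.

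Peaks with a centre in the windows were members. Lists were compared by overlap of at least 1 bp, with exact Clopper-Pearson intervals at 95%, in Python 3.11.15 with scipy 1.17.1, numpy 2.4.6 and pandas 2.3.3, and drawn with matplotlib 3.10.9. For height ratios, the nearest overlapping peak by centre was taken, with conditional binomial intervals of the tags. Overlaps were also tested on simulated lists with known answers. Tags are not independent molecules, so intervals of heights and of ratios of 2 heights cover counting error only. Clopper-Pearson and order-statistic intervals are taken over members, which are not replicates. The members, lists and motifs were chosen with earlier results of these data known. Sites described one by one are all LXRβ and untreated peaks, KLA p65 peaks within 1000 bp of an LXRβ centre, and the 3 tallest KLA p65 peaks of each genotype in each window; others are given by their heights. Promoters were searched for motifs on both strands, with shares over all 32851 promoters in the table.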

Additional observations from a re-analysis of the deposited data

How the results depend on the processing

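Over 12 results, 35 of 42 alternatives stayed within the main value's 95% interval or, for counts, within 1.5 times the main count. The other 7 did not. Whether an alternative changed a direction was not checked. With so few members the intervals of shares were wide, so staying within them was a weak check. Asking for a reciprocal overlap of 50% took the LXRβ peaks with knockout KLA p65 to 5.88% and the wild type KLA peaks with an untreated peak to 0. The 5 knockout pairs had centres 29, 86, 92, 107 and 126 bp apart, of which the pair at 29 bp was left, and the untreated pair had centres 57 bp apart. At 10 tags or more, the members fell to 6 in knockout KLA, 10 in wild type KLA and 0 in wild type untreated cells, and with that limit in both lists the wild type KLA peaks with an untreated peak were 0. With under 1 scaled input tag, 0 LXRβ members remained, since no LXRβ peak lists less than 1.4. The median knockout to wild type ratio ran from 1.01 (10 tags or more in both lists) to 1.36. The limit of 3 mismatches for the receptor repeat and 2 limits on the wild type KLA list (the length of the knockout list, giving 23.5% for LXRβ, and its lowest height, giving 53.8% for the genotypes) were chosen after seeing the data. No paired analysis was possible because each group was 1 library. The untreated p65 libraries, in which 1 tag is worth 12.7 (knockout) and 12.9 (wild type), limit the comparison with KLA, and tags below each list's threshold are not known.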
